A study of Mus musculus with 24 samples.

Results

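The genes that make cholesterol and fatty acids were described in the cortex of mice given an inhibitor of the enzyme that is lost in Gaucher disease. The set was chosen by gene name from knowledge of the pathways, with earlier results of these data known, and held 34 genes. Of these, 31 were measured, among 22180 named genes on the arrays: 17 of 19 enzymes of sterol synthesis, 5 regulators, the cholesterol carrier Stard4, and 8 of 9 genes of fatty acid synthesis. Idi1 and Scd2 shared their probe sets with a second gene name and, with Acat2, were not analysed here.

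CBE (conduritol B-epoxide) blocks the lysosomal enzyme glucocerebrosidase, and mice given it serve as a chemical model of neuronopathic Gaucher disease, in which the lipid glucosylceramide builds up. Male mice of the strains SV129, FVB, C57 (C57BL/6JOlaHsd) and C3H received 25 mg of CBE per kg per day into the peritoneum between postnatal days 8 and 18, and PBS (phosphate-buffered saline) mice were the healthy controls. RNA from a cortical slice was measured at 18 days of age on 24 arrays, 3 for each of the 8 combinations of strain and agent. The drug reached the whole body, no group carried a genetic defect, and the slice held all cell types of the cortex. In such bulk tissue, fewer cells of a type and less RNA per cell cannot be told apart. Nothing in the labels says whether the mice of a group came from separate litters, so p-values measure the spread between these mice.

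Sterol synthesis builds cholesterol from acetyl units: a first group of enzymes makes mevalonate and activated isoprene units, the next joins them to squalene, and the last turns the first ring-shaped product, lanosterol, into cholesterol. The transcription factor Srebf2 switches these enzymes on when membrane cholesterol is low, carried by Scap and held back by Insig1 and Insig2, while its relative Srebf1 mainly serves fatty acid synthesis. The brain makes its own cholesterol because the blood supplies little, and in the weeks after birth much of it goes into myelin, the membrane sheath that oligodendrocytes wrap around axons.

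Promoters of 27 of the 34 genes were present in the RefSeq table used (build GRCm38.p6), each a window of 300 bases that ends just past a gene's start. Fdps, Fdft1, Sqle, Stard4, Scd1, Scd2 and Fads1 had no entry, so the motif counts do not cover them. Both strands were searched for TCACNCCAC, the letters of a sterol regulatory element that Srebf proteins bind, and for CCAAT, the letters bound by NF-Y, a partner of Srebf proteins. Matches may overlap, and the motifs can share an end base. The sterol element letters were found in 1 of the 27 genes, Hmgcs1, against 1.44% of 27025 genes in the table. CCAAT was found in 22 of the 27, against 41.1% of all genes. The following 3 promoters are shown. Hmgcs1 holds the only sterol element match, and Thrsp was the gene called higher. Acly lay below the PBS mean of its strain on all 12 CBE arrays. Capitals mark the matches to the motifs on either strand, and each sequence reads 5′ to 3′ on the strand of its gene.
Hmgcs1, chr13:119690101-119690400, plus strand: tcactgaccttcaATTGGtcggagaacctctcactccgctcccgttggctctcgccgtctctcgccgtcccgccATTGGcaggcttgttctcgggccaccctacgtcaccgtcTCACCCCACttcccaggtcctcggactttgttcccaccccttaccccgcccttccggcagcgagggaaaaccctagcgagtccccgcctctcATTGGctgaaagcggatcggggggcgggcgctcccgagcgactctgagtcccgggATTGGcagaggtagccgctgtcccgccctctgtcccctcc
Acly, chr11:100527951-100528250, minus strand: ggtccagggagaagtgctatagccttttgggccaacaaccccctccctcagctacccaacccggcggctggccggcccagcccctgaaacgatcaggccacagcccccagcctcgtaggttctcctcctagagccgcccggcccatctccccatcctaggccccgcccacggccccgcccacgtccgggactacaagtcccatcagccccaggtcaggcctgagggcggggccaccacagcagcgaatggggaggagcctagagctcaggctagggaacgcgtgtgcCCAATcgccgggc
Thrsp, chr7:97417501-97417800, minus strand: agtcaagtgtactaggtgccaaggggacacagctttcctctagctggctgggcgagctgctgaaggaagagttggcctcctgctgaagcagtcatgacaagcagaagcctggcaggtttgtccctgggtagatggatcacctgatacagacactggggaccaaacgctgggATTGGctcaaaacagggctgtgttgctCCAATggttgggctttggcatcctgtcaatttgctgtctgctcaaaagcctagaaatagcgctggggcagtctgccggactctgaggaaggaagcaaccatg
In Hmgcs1 the match TCACCCCAC occupied bases 114 to 122 of the 300-base window and CCAAT was found 4 times, each time on the opposite strand. Acly held CCAAT once, near the end of its window, and Thrsp held it once on each strand. A match is a run of letters and does not show binding, and a window without one says nothing about the factor.

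The values are log2 signals, and array medians lay between 4.14 and 4.22. The neuron markers averaged 9.95 over the 4 PBS groups and those of choroid plexus 4.17, near the median of all probe sets (4.18). A change is the mean log2 value of the CBE arrays minus that of the PBS arrays. For a single gene it is given ± the standard error (SE) of a limma fit over all 24 arrays. For the mean of a gene list, the SE comes from the spread of the array means, without limma. It uses only the 3 CBE and 3 PBS arrays of a strain, and the mean of 4 strains combines these SEs. A gene was called when its p, adjusted by the Benjamini-Hochberg method over all 22180 genes, was under 0.05. Since each strain has its own PBS mice, the 4 strains are separate comparisons, while the mean of 4 strains reuses them all. The RNA level at 1 probe set is no measure of enzyme amount or of cholesterol. Among the arrays, 2 of the CBE mice stood apart from their replicates in these genes. On SV129 CBE 3, 0 of 17 sterol genes lay above the mean of its group (mean deviation -0.163). On C3H CBE 1 the count was 1 of 17 sterol genes (-0.160) and 0 of 8 fatty acid genes (-0.235), while 5 of 5 microglia markers lay above (0.346). The branch means, the sterol counts by strain and the marker values that these arrays moved most are given with and without them.

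Averaged over the 4 strains, most genes of cholesterol synthesis lay slightly lower with CBE, and 1 gene of fatty acid control was higher. Stard4, which carries cholesterol between membranes inside the cell, fell by 0.29 (18% lower signal). Thrsp, a nuclear protein that promotes fatty acid synthesis and responds to thyroid hormone, rose by 0.32 (25% higher). These 2 of 31 genes were called, where 0.726% of all genes were called. All 17 sterol enzymes were lower in the mean of 4 strains, by 0.03 to 0.20, where 55.6% of all genes were lower, and 0 of the 17 passed the limma test; 7 had an unadjusted p under 0.05. The members lay lower in 27 of 31 cases with a median change of -0.090, against -0.008 over all genes. At an unadjusted p under 0.05, 10 members were lower and 1 higher, where 10.7% of all genes fell under that threshold in either direction.

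**Figure D1:**
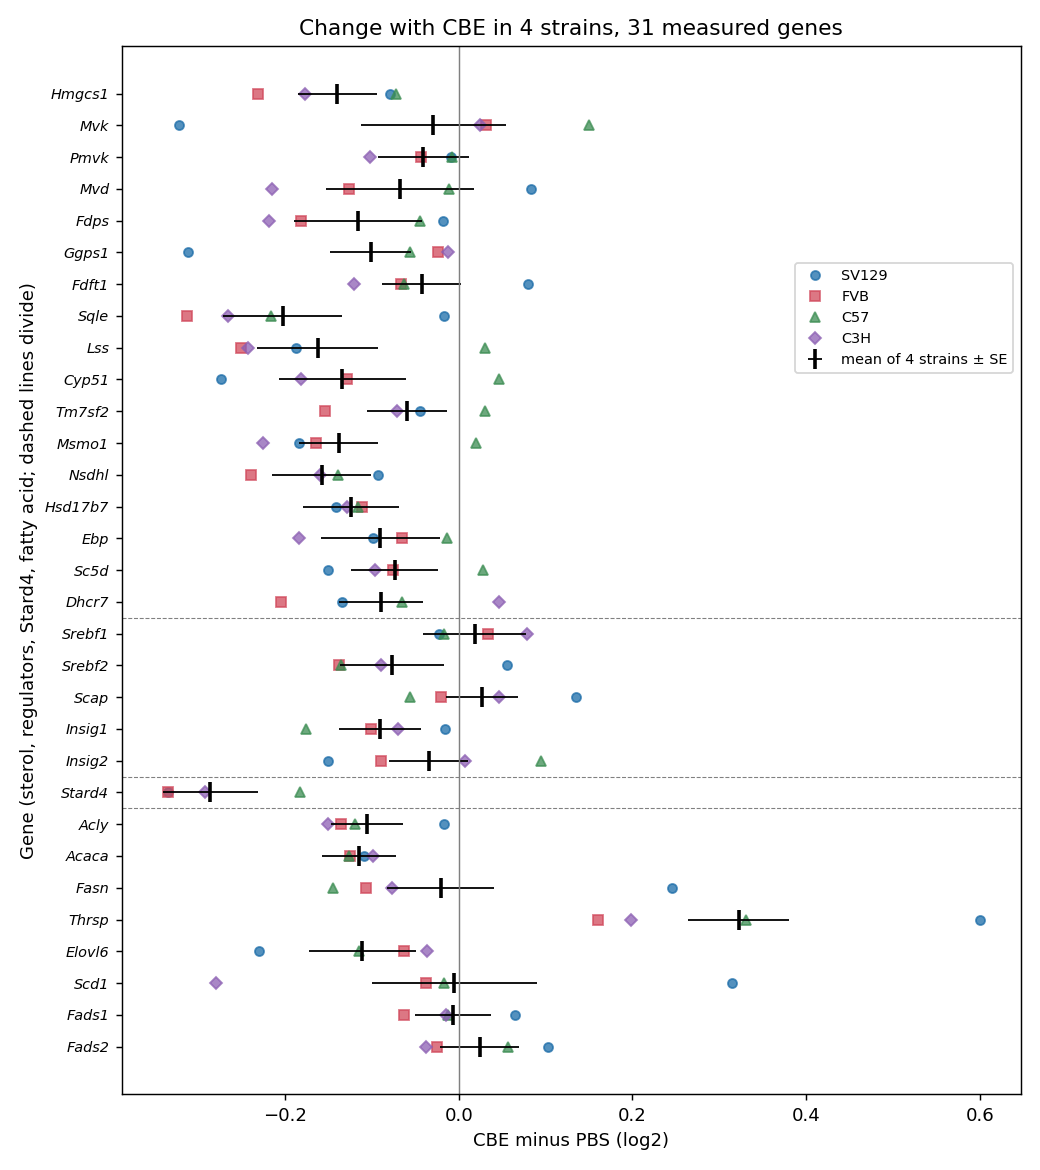
Log2 change (CBE minus PBS) of each of the 31 measured genes in each strain and in the mean of 4 strains; points are values of the fit and the bars on the mean show its standard error. The 17 sterol enzymes all lie left of 0 in the mean of 4 strains, Stard4 lies at -0.29 and Thrsp at 0.32.

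The enzymes of the first steps were led by Hmgcs1 (probe set 17290173), which makes the precursor HMG-CoA and was lower by 0.14 ± 0.046 in the mean of 4 strains (adjusted p = 0.22). Its values were singled out after they had been seen, because 11 of 12 CBE arrays lay below their strain's PBS mean. The same count held for Fdps, Msmo1 and Hsd17b7, and 7.56% of all genes had 10 or more of 12 below. In SV129 the Hmgcs1 PBS arrays read 11.77, 11.63 and 11.62 and its CBE arrays 11.67, 11.66 and 11.46. In FVB they read 11.56, 11.42 and 11.29 against 11.18, 11.21 and 11.18. The C57 arrays held 11.36, 11.27 and 11.22 with PBS and 11.28, 11.30 and 11.05 with CBE, and the C3H arrays 11.55, 11.49 and 11.68 against 11.22, 11.43 and 11.54. The groups did not overlap in FVB and overlapped in the other 3 strains. Mvk and Pmvk, the kinases that phosphorylate mevalonate, stood at -0.03 and -0.04, and Mvd, which makes the isoprene unit, at -0.07. Mvk was not uniform: it stood at -0.32 in SV129, where the groups did not overlap, and between 0.02 and 0.15 in the other strains. Fdps, which joins isoprene units to farnesyl diphosphate, had a change of -0.12 (adjusted p = 0.61) with 11 of 12 CBE arrays below. Ggps1, which makes the longer chain used to anchor proteins in membranes, had a change of -0.10 (adjusted p = 0.44), most of it from SV129 (-0.31).

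At the steps around squalene, Sqle (17311807), the epoxidase that limits the later part of the pathway, had the largest difference of the sterol branch, -0.20 ± 0.068 (adjusted p = 0.24; 95% interval -0.34 to -0.06). The SV129 arrays read 9.08, 8.48 and 8.82 with PBS and 8.88, 8.80 and 8.65 with CBE, and the FVB arrays 8.79, 8.67 and 8.56 against 8.15, 8.55 and 8.37. In C57 the signals were 8.64, 8.28 and 8.34 against 8.27, 8.23 and 8.10, and in C3H 8.55, 8.36 and 8.69 against 8.08, 8.36 and 8.37. Every CBE array lay below every PBS array in FVB and C57, the C3H groups overlapped by the lowest PBS array (8.36) against the highest CBE array (8.37), and in SV129 the CBE values fell inside the PBS range. Fdft1, squalene synthase, was at -0.04, and Lss, which folds the chain into the ring-shaped lanosterol, at -0.16 (adjusted p = 0.39). Lss stood at 0.03 in C57 and between -0.25 and -0.19 in the other strains, without overlap in C3H.

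The enzymes that turn lanosterol into cholesterol ranged from -0.16 to -0.06 in the mean of 4 strains. Nsdhl and Msmo1, which act in turn to remove methyl groups, stood at -0.16 and -0.14 (adjusted p = 0.28 and 0.23), and Hsd17b7, a reductase of the same step, at -0.12 (adjusted p = 0.42). Hsd17b7 gave nearly the same difference in each strain, -0.14 in SV129, -0.13 in C3H, -0.12 in C57 and -0.11 in FVB. Cyp51, the demethylase that opens this stretch, had -0.13, and the isomerase Ebp and Dhcr7, a reductase near the end of the pathway, had -0.09 each. Sc5d, a desaturase, and Tm7sf2, a reductase, had -0.07 and -0.06. CBE arrays lay below all PBS arrays for Tm7sf2 in FVB, Msmo1 in C3H and Dhcr7 in SV129, an arrangement that 5.17% to 8.99% of all genes had in a given strain.

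By strain, the number of sterol enzymes with a lower value under CBE was 16 of 17 in FVB, 15 in SV129, 15 in C3H and 11 in C57, where 54.6%, 50.7%, 52.6% and 54.9% of all genes were lower. Their median change was -0.161 in C3H, -0.129 in FVB, -0.099 in SV129 and -0.013 in C57, against -0.003 to -0.012 over all genes. Of the 17 enzymes, 8 were lower in all 4 strains; among all 31 members 13 were, where 9.97% of all genes were. The mean of the 17 enzymes on each array gives the same picture in 1 value per mouse. In SV129 it read 8.28, 8.13 and 8.21 with PBS and 8.23, 8.12 and 7.93 with CBE, a difference of -0.11 ± 0.097. In FVB the means were 8.26, 8.11 and 8.06 against 7.94, 8.05 and 8.03 (-0.14 ± 0.069). The FVB groups did not overlap, whereas those of SV129 did. The C57 means were 8.23, 8.13 and 8.08 against 8.15, 8.18 and 8.03 (-0.03 ± 0.065), and the C3H means 8.09, 8.01 and 8.13 against 7.78, 8.02 and 8.02 (-0.14 ± 0.087). The difference was within its own error in C57, and C3H CBE 1 was by far the lowest array of its strain. Over the 4 strains the branch mean differed by -0.10 ± 0.040, the SE here being that of the array means; the members share their arrays and are not replicates, so no p is given. Without C3H CBE 1 the C3H difference was -0.06 and the mean of 4 strains -0.08, with 17 of 17 enzymes lower; within C3H 13 of 17 were then lower, with a median of -0.091. Without SV129 CBE 3 the SV129 difference was -0.03 and the mean of 4 strains -0.08, with 16 of 17 lower; within SV129 11 of 17 were then lower, with a median of -0.013. The C57 difference turned to 0.01 without C57 PBS 1 and to 0.02 without C57 CBE 3, and the FVB difference was -0.08 without FVB PBS 1. These counts without single arrays were added after the values had been seen.

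**Figure D2:**
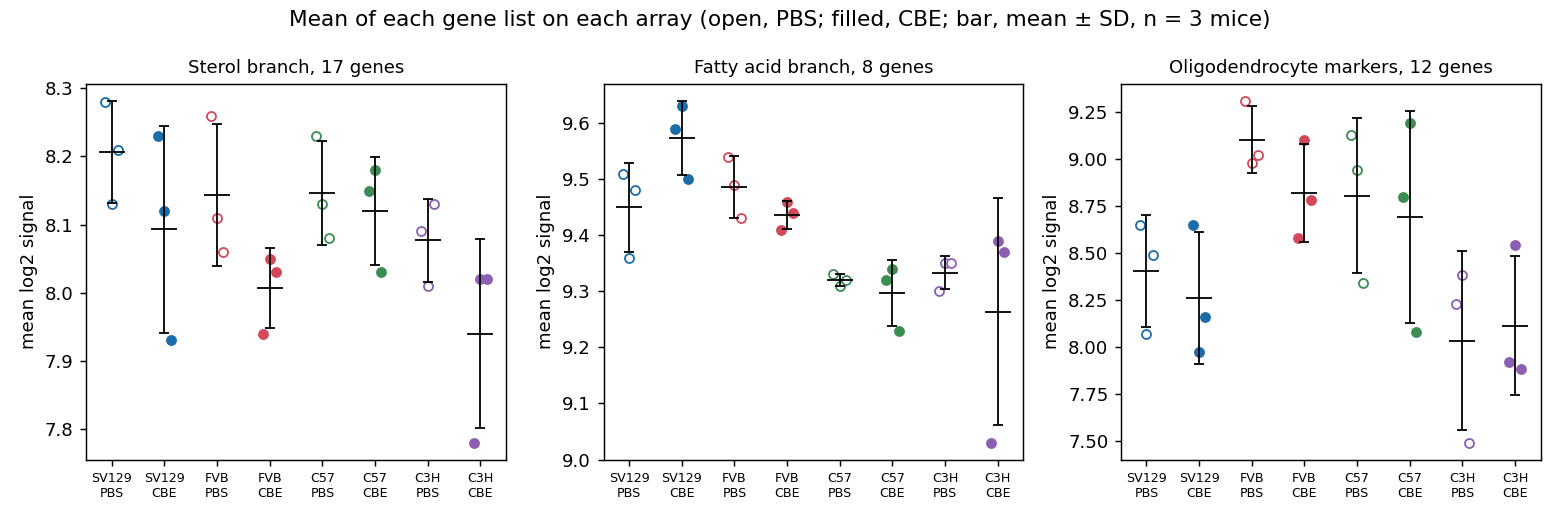
Mean log2 signal of the 17 sterol enzymes, the 8 fatty acid genes and the 12 oligodendrocyte markers on each array, by strain and agent; each point is 1 mouse and bars show the group mean ± SD (n = 3). In C3H the first CBE mouse lies lowest in both gene branches (7.78 and 9.03), and the 3 SV129 CBE mice lie between 9.50 and 9.63 in the fatty acid branch.

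Oligodendrocytes make much of the cholesterol of the young brain, so their markers were set beside these values. The 12 measured markers, which include the myelin proteins Mbp, Mag and Mog, spread far more between mice of 1 group than the sterol enzymes: their mean ran from 7.49 to 8.38 over the 3 C3H PBS mice and from 8.34 to 9.13 over the 3 C57 PBS mice. Their change was -0.28 ± 0.183 in FVB, -0.15 ± 0.269 in SV129, -0.12 ± 0.402 in C57 and 0.08 ± 0.349 in C3H, and -0.12 ± 0.156 in the mean of 4 strains. There 11 of 12 markers were lower and 0 were called. Without C3H CBE 1 the C3H change of these markers was 0.18, with 0 of 12 lower. Without SV129 CBE 3 their SV129 change was -0.09, with 9 of 12 lower. Markers of oligodendrocyte precursors were lower in 5 of 5 cases in the mean of 4 strains; their mean change was -0.23 ± 0.163 in FVB, -0.19 ± 0.157 in SV129, -0.08 ± 0.187 in C57 and -0.12 ± 0.076 in the mean of 4 strains, with 0.02 ± 0.078 in C3H and 0 called. Without SV129 CBE 3 their SV129 change was -0.07. Array by array, the sterol mean lay on the same side of its group mean as the oligodendrocyte mean on 18 of 24 arrays, where an even split would be 12. Deviations within a group of 3 sum to 0, so the 24 arrays are not independent and no p is given. The count was 18 for neurons, 15 for oligodendrocyte precursors, 11 for astrocytes and 10 for microglia. The mean of the neuron markers changed by -0.04 ± 0.020 in the mean of 4 strains. It changed by -0.11 ± 0.025 in C57, -0.04 ± 0.035 in C3H, -0.01 ± 0.032 in FVB and -0.01 ± 0.059 in SV129. That of the astrocyte markers changed by 0.03 ± 0.027 in the mean of 4 strains. Microglia markers were higher in 5 of 5 cases, with a mean change of 0.16 ± 0.061 (0.12 without C3H CBE 1, where the C3H value went from 0.26 to 0.08), and Csf1r, a microglial growth factor receptor, was called (0.29, adjusted p = 0.033). The part of cell composition in the sterol values was not tested.

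Among the regulators 0 of 5 were called, and their mean changes ran from -0.09 to 0.03; 0 of the 5 had an unadjusted p under 0.05. Srebf2 (17313504), the main activator of the sterol enzymes, had a change of -0.08 ± 0.060 (adjusted p = 0.72). Its arrays read 8.75, 8.32 and 8.77 with PBS and 8.70, 8.74 and 8.57 with CBE in SV129, and 8.66, 8.96 and 8.62 against 8.46, 8.73 and 8.63 in FVB. In C57 they read 8.71, 8.73 and 8.69 against 8.68, 8.61 and 8.43, and in C3H 8.58, 8.62 and 8.63 against 8.28, 8.73 and 8.55. The C57 CBE arrays lay just below the PBS arrays (8.68 against 8.69 at the nearest pair), and the other strains overlapped. Srebf1 (17263535), the activator of fatty acid synthesis, lay between 4.28 and 4.87 on the 24 arrays, near the median of all probe sets, where a change can be hidden; its change was 0.02 ± 0.059.

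Insig1 (17435584), which retains the Srebf and Scap complex in the endoplasmic reticulum and is itself a target of Srebf proteins, had the lowest mean change of the regulators, -0.09 ± 0.047 (adjusted p = 0.51). In C57 its arrays read 9.82, 9.70 and 9.72 with PBS and 9.60, 9.59 and 9.51 with CBE, and in C3H 9.16, 9.12 and 9.02 against 8.76, 9.23 and 9.10. The SV129 values were 9.22, 9.24 and 9.32 against 9.32, 9.34 and 9.08, and the FVB values 9.17, 9.37 and 9.22 against 9.12, 9.19 and 9.15. CBE and PBS arrays did not overlap in C57 and overlapped in the other 3 strains. Its relative Insig2 (17226346), which holds the complex back in the same way, had a change of -0.03 ± 0.046. Its arrays in SV129 read 7.70, 7.71 and 7.68 with PBS against 7.77, 7.34 and 7.51 with CBE, and in FVB 7.60, 7.72 and 7.59 against 7.48, 7.52 and 7.64. In C57 they were 7.44, 7.45 and 7.66 against 7.68, 7.52 and 7.64, and in C3H 7.49, 7.67 and 7.58 against 7.56, 7.51 and 7.69. These groups overlapped in every strain. Scap (17522338), which escorts Srebf proteins to the Golgi, had the highest mean change of the regulators, 0.03 ± 0.042, and this value was -0.01 when SV129 was left out of the mean. Scap arrays read 8.29, 8.19 and 8.44 with PBS and 8.45, 8.54 and 8.33 with CBE in SV129, and 8.22, 8.24 and 8.09 against 8.11, 8.28 and 8.10 in FVB. The C57 arrays held 8.49, 8.57 and 8.39 against 8.49, 8.48 and 8.32, and the C3H arrays 8.29, 8.20 and 8.32 against 8.28, 8.44 and 8.24. All 4 strains overlapped.

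Stard4 (17353358) fell by 0.29 ± 0.055 in the mean of 4 strains (adjusted p = 0.0085; 95% interval -0.40 to -0.17) and was below the PBS mean of its strain on 12 of 12 CBE arrays, where 0.442% of all genes were. In SV129 it read 6.84, 6.73 and 6.68 with PBS and 6.55, 6.30 and 6.39 with CBE. The FVB arrays read 6.48, 6.23 and 6.16 against 5.69, 5.99 and 6.19. The groups lay apart in SV129 and met in FVB, where CBE 3 reached the PBS values. In C57 the signals were 6.01, 5.99 and 6.19 against 5.86, 5.89 and 5.89, and in C3H 6.28, 6.27 and 6.41 against 5.86, 6.07 and 6.15. Both of these strains had no overlap, so that the groups lay apart in 3 of 4 strains, as they did with lower CBE values in at least 3 strains for 0.234% of all genes. The change was -0.34 in SV129 and FVB, -0.29 in C3H and -0.18 in C57, and within no single strain did Stard4 pass (adjusted p = 0.19, 0.53, 0.88 and 0.94). The call held in each of the 32 alternative settings tried, with adjusted p up to 0.049 when SV129 was left out of the mean.

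**Figure D3:**
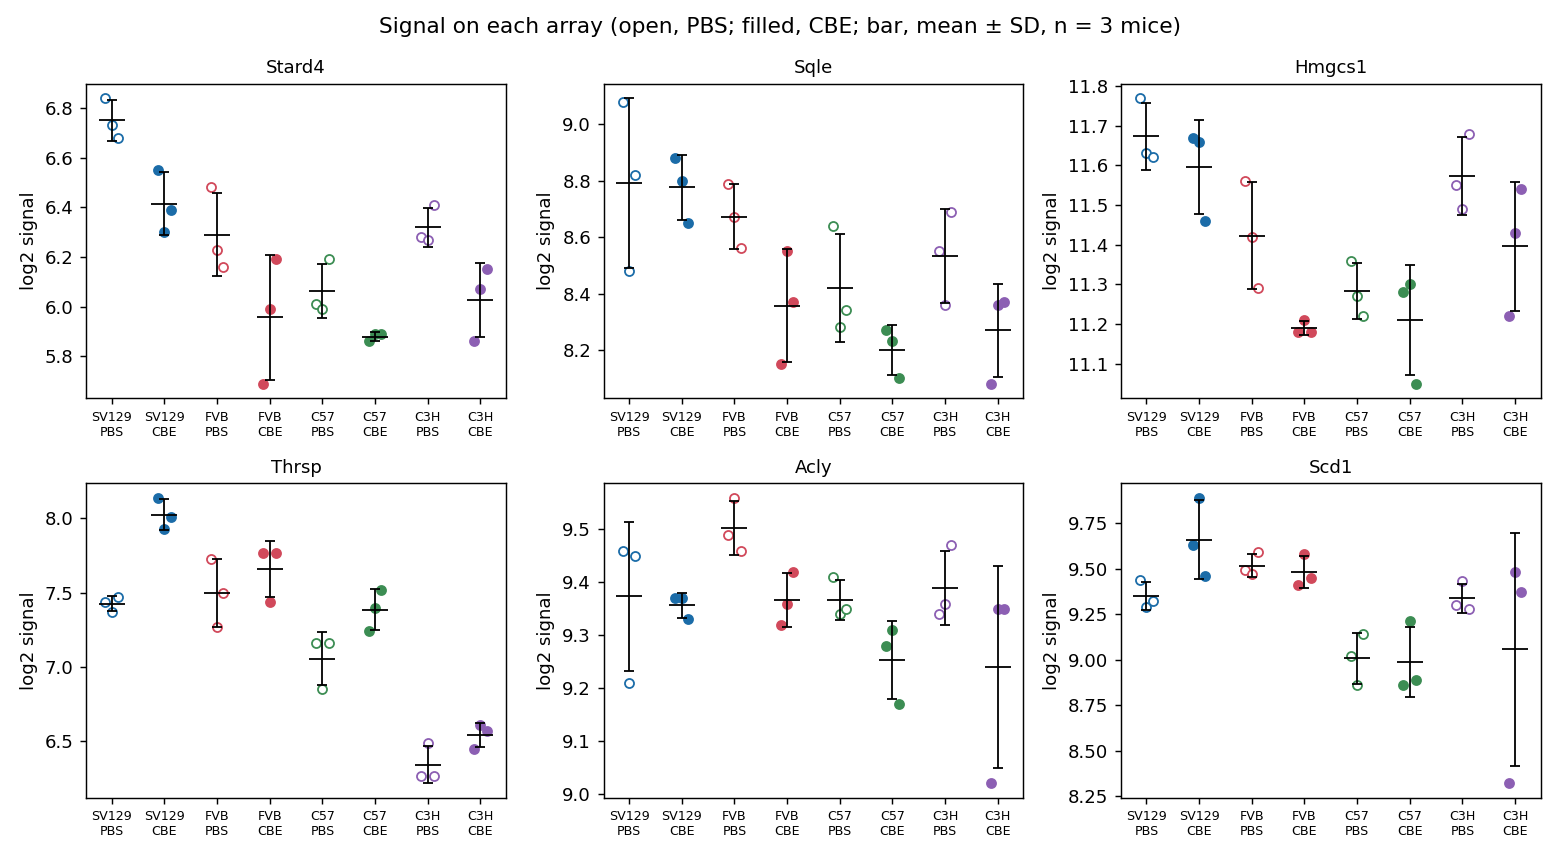
Log2 signal of Stard4, Sqle, Hmgcs1, Thrsp, Acly and Scd1 on each array, by strain and agent; each point is 1 mouse and bars show the group mean ± SD (n = 3). Stard4 lies lower with CBE in all 4 strains, with overlap only in FVB, and Thrsp lies higher, with no overlap in SV129 (7.37 to 7.47 against 7.93 to 8.14) and C57.

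In fatty acid synthesis the enzymes that start the chain lay lower and the regulator Thrsp rose. Acly (17269521), which supplies acetyl-CoA to both pathways, had a change of -0.11 ± 0.042 (adjusted p = 0.34), and its values were singled out after they had been seen. In SV129 Acly read 9.46, 9.21 and 9.45 with PBS and 9.37, 9.37 and 9.33 with CBE, and in FVB 9.49, 9.56 and 9.46 against 9.32, 9.36 and 9.42. The C57 arrays were 9.41, 9.34 and 9.35 against 9.28, 9.31 and 9.17, and the C3H arrays 9.34, 9.36 and 9.47 against 9.02, 9.35 and 9.35. All 12 CBE arrays lay below the PBS mean of their strain, with no overlap in FVB and C57; Stard4 and Acly were the 2 members of which this held. Acaca (17254395), the carboxylase that commits acetyl-CoA to fatty acids, had the lowest mean change of the branch, -0.12 ± 0.042 (adjusted p = 0.29). It read 8.31, 8.10 and 8.24 with PBS and 8.21, 8.11 and 8.00 with CBE in SV129, and 8.04, 8.08 and 7.94 against 7.86, 7.90 and 7.92 in FVB. In C57 it read 7.78, 7.90 and 7.69 against 7.80, 7.64 and 7.55, and in C3H 8.13, 8.10 and 8.30 against 7.97, 8.09 and 8.18. The differences of Acaca were alike in size, -0.10 to -0.13, and only the FVB groups lay apart.

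Thrsp (17493432) rose by 0.32 ± 0.058 in the mean of 4 strains (adjusted p = 0.0048; 95% interval 0.20 to 0.44). Its SV129 arrays read 7.44, 7.37 and 7.47 with PBS and 8.14, 7.93 and 8.01 with CBE. In FVB they read 7.73, 7.27 and 7.50 against 7.77, 7.44 and 7.77. SV129 mice were well apart by agent, and FVB mice were not. The C57 arrays held 7.16, 6.85 and 7.16 against 7.24, 7.40 and 7.52, and the C3H arrays 6.27, 6.49 and 6.27 against 6.45, 6.61 and 6.57. CBE was higher without overlap in C57, and 11 of 12 CBE arrays lay above their strain's PBS mean. The change was 0.60 ± 0.12 in SV129 (adjusted p = 0.044), 0.33 in C57, 0.20 in C3H and 0.16 in FVB. Thrsp was the 1 of 31 members called in SV129, where 0.113% of all genes were called. This SV129 call ended without any 1 of 9 arrays (SV129 PBS 2 and 3, SV129 CBE 1, 2 and 3, FVB CBE 3, C57 PBS 1, C57 CBE 2 and C3H CBE 3), and the adjusted p then lay between 0.051 and 0.18. It ended also in an ordinary linear model (0.09) and with the SV129 arrays alone (0.12). With SV129 left out of the mean the change was 0.23 and did not pass (adjusted p = 0.20). The thalamus markers, which register how much deeper tissue a slice took in, were lower by 0.27 ± 0.064 in SV129 and between -0.05 and 0.06 elsewhere. In SV129 4 of the 6 were lower and 2 higher. Ntng1 was called there (-0.82, adjusted p = 0.010, and 0.063 without SV129 CBE 3), Slc17a6 stood at -0.85 (adjusted p = 0.066), and Plekhg1 stood at 0.27 with its CBE arrays above its PBS arrays. The part of dissection in the SV129 values was not tested.

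The enzymes that lengthen and desaturate fatty acids showed no shared direction. Fasn, the synthase that builds palmitate, had a change of -0.02 ± 0.062, with 0.24 in SV129 and -0.08 to -0.14 elsewhere, and Elovl6, which lengthens palmitate, had -0.11 ± 0.061 (adjusted p = 0.54). Scd1 (17365098), which makes oleate, had a change of -0.01 ± 0.095. Its arrays read 9.44, 9.29 and 9.32 with PBS and 9.63, 9.89 and 9.46 with CBE in SV129, and 9.30, 9.43 and 9.28 against 8.32, 9.48 and 9.37 in C3H. The FVB arrays were 9.49, 9.47 and 9.59 against 9.41, 9.58 and 9.45, and the C57 arrays 9.02, 8.86 and 9.14 against 8.86, 9.21 and 8.89. CBE was higher without overlap in SV129, and the C3H mean rested on the low value of CBE 1. Fads1 (17357460) and Fads2 (17362595), neighbouring desaturases of the long-chain series, had changes of -0.01 ± 0.044 and 0.02 ± 0.046. Fads1 read 10.61, 10.41 and 10.45 with PBS against 10.49, 10.76 and 10.41 with CBE in SV129, and 10.43, 10.52 and 10.32 against 10.39, 10.42 and 10.27 in FVB. In C57 and C3H its 12 arrays lay between 10.24 and 10.63. Fads2 lay between 9.98 and 10.40 on all 24 arrays. For neither gene did the agents separate in any strain.

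The mean of the 8 fatty acid genes lay higher with CBE in SV129 and lower in the other strains, a difference that was not tested. In SV129 it read 9.51, 9.36 and 9.48 with PBS and 9.59, 9.63 and 9.50 with CBE (0.12 ± 0.061), and in FVB 9.54, 9.49 and 9.43 against 9.41, 9.46 and 9.44 (-0.05 ± 0.036). The C57 means were 9.33, 9.31 and 9.32 against 9.32, 9.34 and 9.23 (-0.02 ± 0.034), and the C3H means 9.30, 9.35 and 9.35 against 9.03, 9.39 and 9.37 (-0.06 ± 0.119). Without Thrsp the SV129 value was 0.05. Over the 4 strains the branch differed by 0.00 ± 0.036, and by -0.05 without Thrsp. Without C3H CBE 1 the C3H value turned from -0.06 to 0.05 and the mean of 4 strains was 0.03. Without SV129 CBE 3 the SV129 value was 0.16 and the mean of 4 strains 0.01. In the mean of 4 strains 6 of the 8 genes were lower, and the median change of the 8 was -0.014; without C3H CBE 1 the count was 3, and without SV129 CBE 3 it was 4.

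Within single strains, 0 of 31 members were called in FVB, C57 and C3H by limma, where 0.135%, 0.325% and 0.0361% of all genes were called. At an unadjusted p under 0.05 the counts were 5 in FVB, 3 in SV129, 2 in C3H and 1 in C57, against 6.27%, 13.0%, 5.02% and 5.78% of all genes. Members whose CBE arrays all lay below the PBS arrays numbered 5 in FVB and in C57 and 3 in SV129 and in C3H, where the shares of all genes were 5.96%, 7.22%, 8.99% and 5.17%. The F-test of whether the 4 changes were equal called 0 of 31 members, where 0.00902% of all genes were called. The smallest adjusted p was 0.757, for Thrsp, and 0 members had an unadjusted p under 0.05, against 6.57% of all genes. This does not show that the strains respond alike: the median SE of a change in single strains was 0.10.

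Lists of neighbouring genes gave no further calls by limma in the mean of 4 strains or in any strain. Of 10 measured genes listed under other sterol synthesis and control, 10 were lower, with a median of -0.058. The smallest p was that of Hspd1 (-0.13, adjusted p = 0.20), a mitochondrial chaperone that is itself no enzyme of sterol synthesis. Of 22 genes of sterol uptake, transport and turnover, 10 were lower and 12 higher, with a median of 0.009; Clu, a lipid-carrying secreted chaperone, had the smallest p (0.12, adjusted p = 0.11). Of 8 targets of LXR, the receptors that sense oxidised sterols, 5 were lower, and Abca1, which exports cholesterol, stood at 0.18 (adjusted p = 0.23). Of 31 other genes of fatty acid synthesis 20 were lower, and Elovl7, an elongase, stood at -0.31 (adjusted p = 0.15). In the mean of 4 strains, where 55.6% of all genes were lower, the genes listed under other sterol synthesis and control, Hspd1 included, all lay below 0. Of these 10 genes, 2 were lower in each of the 4 strains, where 9.97% of all genes were. The uptake, transport and turnover list lay on both sides of 0 in the mean of 4 strains. Of its 22 genes, 6 were higher in each of the 4 strains, where 6.38% of all genes were, and 3 were lower in each. The difference between the lists was not tested.

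More members were called between PBS strains than between agents in the mean of 4 strains. The same order held for all genes, with 13.0% and 0.726% called. Each gene was read by 1 probe set, and the part of sequence differences between strains at the probes was not tested. Among PBS mice the F-test over the 4 strains called 9 of 31 members, where 13.0% of all genes were called: Thrsp, Insig1, Stard4, Acaca, Hsd17b7, Hmgcs1, Nsdhl, Tm7sf2 and Cyp51. Thrsp differed most (adjusted p = 1.5e-06). C3H mice, at 6.27 to 6.49, lay below every other PBS array, at -0.99 ± 0.095 from the mean of the other strains (adjusted p = 1.4e-06), while FVB and SV129 lay above by 0.56 and 0.46 (adjusted p = 0.0012 and 0.0060). The order of Thrsp was C3H, C57, then SV129 and FVB, of which the last 2 overlapped. Stard4 (adjusted p = 0.0013) was highest in SV129, 0.53 ± 0.090 above the mean of the other strains (adjusted p = 0.0012), with its 3 arrays above all others. It was lowest in C57, at -0.39 ± 0.090 (adjusted p = 0.0065), where 1 of 3 arrays reached the FVB range.

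C57 stood apart in the most members: 8 of 31 differed from the mean of the other strains, where 9.81% of all genes did. Insig1, the brake on Srebf processing, was higher by 0.54 ± 0.077 in C57 (adjusted p = 7.1e-05) and its 3 PBS arrays, 9.70 to 9.82, lay above the 9 others. It was lower in C3H (-0.32, adjusted p = 0.026). Hsd17b7, Scap and Elovl6 were also higher in C57, by 0.44, 0.23 and 0.32 (adjusted p = 0.0028, 0.034 and 0.045). Acaca, Nsdhl, Stard4 and Hmgcs1 were lower in C57, with Acaca at -0.35 ± 0.069, Nsdhl at -0.35 and Hmgcs1 at -0.27 (adjusted p = 0.0022, 0.018 and 0.022). In C57 the 3 sterol enzymes that passed did not share a direction. The other strains had fewer: 2 of 31 in SV129 (Stard4 and Thrsp), 1 in FVB (Thrsp) and 3 in C3H (Tm7sf2, Insig1 and Thrsp), where 4.14%, 3.90% and 2.49% of all genes were called. Thrsp, Insig1, Stard4, Acaca and Hsd17b7 kept their F-test call in each of 30 alternative settings. Cyp51 lost it in 18, Tm7sf2 in 8, Nsdhl in 4 and Hmgcs1 in 3. Without C57 PBS 2 or without C57 PBS 3 the number of members called fell from 9 to 5.

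**Figure D4:**
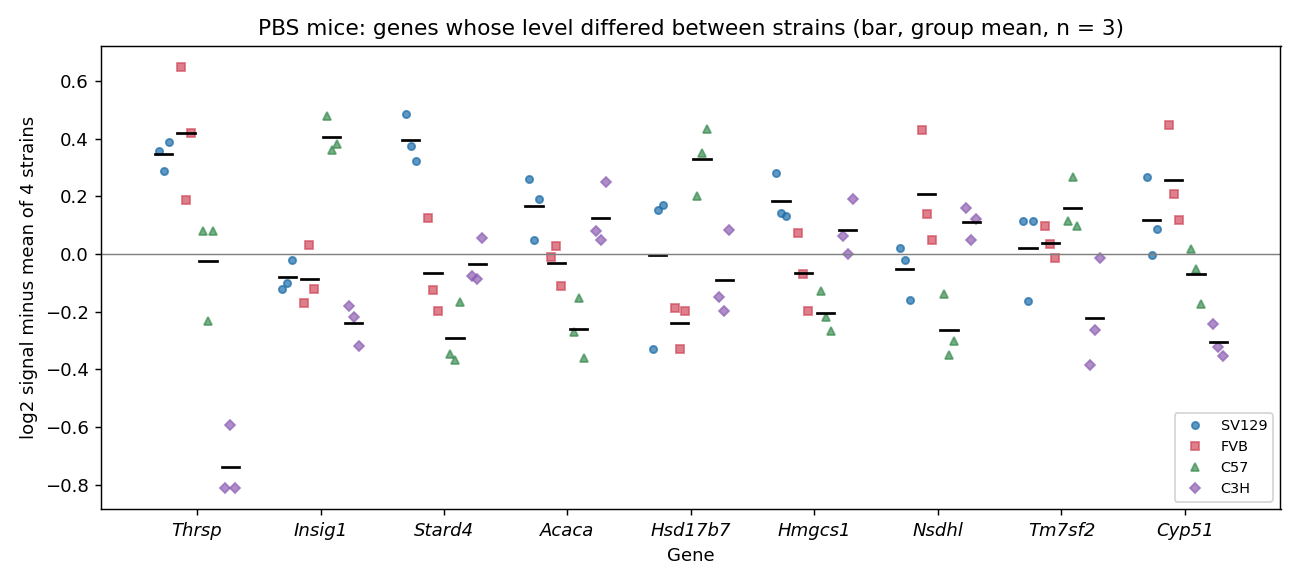
Log2 signal minus the mean of the 4 strains (vertical axis) for the 9 members called between strains in PBS mice; each point is 1 mouse and the bar is the group mean (n = 3). Thrsp is lowest in C3H, Stard4 highest in SV129 and Insig1 highest in C57.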

How the data were processed

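The authors deposited log2 values for 41034 probe sets on 24 arrays; RMA (robust multi-array average) and Partek were used per the submitters' processing notes, with versions and order not given in the sources used here, and the base of the logarithm was inferred from the range of the values (2.43 to 14.09). Gene names came from the platform annotation: 23521 probe sets had 1 symbol, 1814 several and 15699 none, and only the first kind was used. The probe set of highest mean stood for each of 22180 genes. No genome build was named, so probe sets carry no positions. The members and lists were chosen with earlier results of these data known.

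All tests were two-sided and used limma 3.58.1 in R 4.3.3 with 1 mean per group, 24 arrays in 1 fit, 16 residual degrees of freedom and a prior of 5.1. Contrasts were CBE minus PBS per strain, their mean, an F-test of equal changes, an F-test over the PBS groups, and each strain's PBS mean minus that of the other 3. An exact permutation test of 3 against 3 arrays cannot give a p below 0.1, so tests within a strain lean on the spread shared by 8 groups. The number of arrays limits the precision: a change had a median SE of 0.10 in single strains and 0.05 in their mean. The script was tested on simulated data. Values per array were given for members that passed, the largest changes of each branch, the 4 smallest p-values between PBS strains and paralog pairs; Acly and Hmgcs1 were added after their values had been seen. Alternatives were other scaling, probe set, filter and variance choices, strain subsets, a replicate block and each array left out. Scanner files were not used here.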

Additional observations from a re-analysis of the deposited data

Results flagged for a closer look

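The mean of the 8 fatty acid genes was marked for a closer look because every CBE array of SV129 lay above the PBS mean of its strain, while every CBE array of FVB lay below. The change was 0.12 in SV129 and -0.05 in FVB, 0.17 apart, and the difference was not tested. Without Thrsp the values were 0.05 and -0.08. Dixon's test for an array far from the others was not applied, since each group held 3 arrays.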

How the results depend on the processing

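The number of members called in SV129 was 1 with every array, 0 in an ordinary linear model and 0 with only the strain's own arrays, and it ranged from 0 to 2 when 1 array was left out; it was 2 without SV129 PBS 1, where Ggps1 also passed (-0.41, adjusted p = 0.042). The number called in the mean of 4 strains, 2, became 1 with SV129 left out of the mean, where Stard4 passed (adjusted p = 0.049) and Thrsp did not; there Scap changed sign to -0.01 (adjusted p = 0.99, against 0.56 to 0.99 over its alternatives). The 9 members called between PBS strains ranged from 5 to 10 when 1 array was left out. The fatty acid mean in C57 moved from -0.02 to -0.07 without Thrsp and to -0.13 when each array was scored by the median signal of the 8 genes, a score that gave 0.25 in SV129 against 0.12; the median of the 8 genes' own changes was -0.066 in C57 and 0.083 in SV129. For these changes the cause was not tested. The remaining branch means moved by less than the spread between replicates, though single arrays turned the sign of the sterol mean in C57 (range -0.06 to 0.02) and of the fatty acid mean in C57 (-0.04 to 0.01) and in C3H (-0.13 to 0.05); the fatty acid mean of 4 strains, 0.00, ranged from -0.02 to 0.03. The FVB sterol mean ranged from -0.18 to -0.08. Of the counts, 16 or 17 of 17 sterol enzymes and 24 to 28 of 31 members were lower when 1 array was left out, and the sterol mean of 4 strains ranged from -0.12 to -0.08. Centring each array on its median shifted the median of all genes in SV129 from -0.003 to -0.055. With the replicate number as a block (replicate block), 2 members were called in the mean of 4 strains, 1 in SV129 and 0 in the other strains. Same-numbered mice share only a number: of 12 pairs, 2 had deviations correlated above 0.1 (range -0.19 to 0.20), and 4 arrays correlated best with their own number. No paired analysis was possible of the PBS comparison between strains, since it compares strains within 1 agent. Groups of 3 mice, and signals near the array median as for Srebf1, limit what could be seen.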
